A study of Mus musculus with 5 samples.

Results

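The cells described here are circulating γδ T cells of mice, T lymphocytes whose antigen receptor is built from a γ and a δ chain, found by single-cell RNA sequencing of peripheral blood mononuclear cells. A barcode was taken as a γδ T cell when 200 or more genes were detected, under 10% of its transcripts were mitochondrial, and it held at least 1 unique molecular identifier (UMI, a counted transcript molecule) of Trdc, the δ constant gene, and at least 1 of the γ constant genes Trgc1, Trgc2 or Trgc4. It also had to hold at least 2 UMIs over Cd3e, Cd3d and Cd3g, the invariant chains that carry every T-cell receptor to the surface. It had to hold no UMI of Cd4 and Cd8b1, co-receptors of αβ T cells, of Cd79a, a B-cell receptor chain, of Lyz2, the lysozyme of myeloid cells, or of Ncr1, a receptor of natural killer (NK) cells. This rule found 213 cells among 66693 barcodes, of which 62028 passed the 2 quality filters. The cells were chosen by the raw UMIs of these genes, so their levels are given below as a description and not as a result.

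The mice were C57BL/6N, and the regimen models a form of heart failure in which ejection fraction is preserved. One library of HFD + L-NAME + NO2-OA mice (called the NO2-OA library) came from animals given a high-fat diet and L-NAME, an inhibitor of nitric oxide synthase, for 15 weeks and nitro-oleic acid, an electrophilic fatty acid, during the last 4 weeks. In addition there were 2 libraries of HFD + L-NAME mice, which had the same regimen without nitro-oleic acid, and 2 of chow mice, which had regular food. Age and sex are not in the labels, nor is it said whether the libraries come from separate animals, and p-values therefore measure only how far these libraries spread, which may be technical. The γδ cells numbered 99 in the NO2-OA library, 25 and 14 in the HFD + L-NAME libraries, against 47 and 28 in the chow libraries.

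γδ T cells form in the thymus beside αβ T cells, but most recognize antigen without classical major histocompatibility molecules. In mice many leave the thymus already committed to a program, either a type 1 program, with the transcription factor Tbx21, interferon-γ and NK receptors, or a type 17 program, with the factors Sox13 and Maf, the receptors for interleukin-23 and interleukin-1, and interleukin-17A as the product. Which γ segment a cell uses is tied to where and when it formed, and each γ variable segment is joined to a constant gene of its own cluster.

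The 3 γ constant genes that the rule counts differ in how well short transcript reads can tell them apart. Over their coding parts, Trgc1 and Trgc2 matched at 487 of 500 aligned bases (97.4%), and Trgc1 and Trgc4 at 78.7%. Over the last 200 bases of the transcript, where a 3′ library reads, identity was 96.4% between Trgc1 and Trgc2 and 58.6% between Trgc1 and Trgc4. A stretch of 60 bases in the first coding exon is shown for each. It was picked there as the stretch without gaps in which Trgc4 differs most from Trgc1. The stretch lies in the coding part and not at the transcript end that a 3′ library reads. They lie on chromosome 13 of GRCm38 (GENCODE annotation) at chr13:19214245-19214304 on the plus strand for Trgc1, chr13:19307350-19307409 on the minus strand for Trgc2 and chr13:19344700-19344759 on the plus strand for Trgc4. Capitals mark bases that differ from Trgc1, 3 in Trgc2 and 16 in Trgc4.
Trgc1: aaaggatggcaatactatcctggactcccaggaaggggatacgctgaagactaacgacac
Trgc2: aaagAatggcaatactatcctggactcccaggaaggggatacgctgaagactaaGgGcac
Trgc4: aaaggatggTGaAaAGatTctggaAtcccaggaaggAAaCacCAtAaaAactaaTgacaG
A UMI of Trgc1 may therefore belong to Trgc2 and the reverse, and the 2 are counted as 1 kind in the chain makeup below. UMIs of Trgc4 are better separated.

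Levels are CPM, a gene's UMIs over the summed γδ cells of a library scaled to a common total, and 5 values in a row stand for the NO2-OA library, the HFD + L-NAME libraries 1 and 2 and the chow libraries 1 and 2, in that order. Trdc stood at 606, 446, 691, 459 and 716 CPM. Trgc1 stood at 127, 114, 46.0, 62.1 and 117 CPM, Trgc2 at 90.7, 89.1, 69.1, 67.5 and 108 CPM and Trgc4 at 101, 74.3, 215, 91.8 and 133 CPM. Each of the 4 receptor genes was present in all 5 libraries. Of the 213 cells, 109 held Trgc1, 98 Trgc2 and 122 Trgc4. Scart1, a scavenger receptor known from γδ T cells, was detected in 13 cells.

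Markers that the rule did not use were checked next. Trac, the α constant gene, was detected in 20.2% of γδ cells, against 69.6% in a CD8 gate and 74.5% in a CD4 gate built in the same way without Trdc; with cells thinned to 3000 UMIs these were 10.0%, 39.5% and 53.3%. It was detected in 1.02% of B-gated cells, whose median depth per library ran from 5363 to 7920 UMIs, against 6889 to 9582.5 UMIs in γδ cells. Transcripts of the β constant genes were common: Trbc2 was found in 186 and Trbc1 in 107 of the 213 cells. Cd8a was found in 8 cells. The 8 NK markers summed to 123 to 325 CPM per library in γδ cells, against 5237 to 7719 CPM in the NK gate, with Ncr1 and Klra4 at 0 in all 5 libraries. The 8 B-cell markers summed to 54.5 to 112 CPM and the 6 monocyte markers to 124 to 153 CPM, with Cd79a, Ms4a1, Lyz2 and Fcgr1 at 0; of these Ncr1, Cd79a and Lyz2 were set by the rule.

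Near the edges of the gate, Trac tells how much the thresholds matter. Among the 24 members with a single Trdc UMI, 33.3% held Trac, and among the 189 with more Trdc, 18.5% did. Of cells that missed the gate on 1 condition alone, 172 lacked only Trdc and 74.4% of them held Trac. A further 140 lacked only the γ constant genes, and 37.9% of those held Trac. The Lyz2 condition alone kept 87 cells out, with Trac in 24.1%. The conditions on Cd3, Cd4, Cd8b1, Cd79a and Ncr1 alone kept out 1, 7, 24, 31 and 5 cells.

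The γ chain makeup varied among libraries. Cells with Trgc1 or Trgc2 and no Trgc4 numbered 48 of 99 in the NO2-OA library, 11 of 25 and 1 of 14 in the HFD + L-NAME libraries, against 21 of 47 and 10 of 28 in the chow libraries. Cells with Trgc4 alone numbered 20 in the NO2-OA library, 2 and 7 in the HFD + L-NAME libraries, against 15 and 7 in the chow libraries. The second HFD + L-NAME library was thus low in the first kind and high in the second kind, and the ranges of the HFD + L-NAME and chow libraries overlapped. Cells with both kinds numbered 31, 12, 6, 11 and 11 in the same order, 71 in all. Transcripts of a rearranged or unrearranged locus are counted alike, so these cells cannot be read as carrying several receptors.

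Among variable segments, Trgv2 had the most UMIs, 131 in 79 cells. Trgv1 had 31 UMIs in 27 cells and Trgv4 had 21 UMIs in 18 cells. Trgv6, whose cells are known in mice for interleukin-17, had 4 UMIs in 4 cells, and Trgv5, the segment of epidermal γδ cells, had 0 UMIs. Of the δ segments, Trdv4 had 11 UMIs in 7 cells, Trdv1 had 9 in 6 cells, Trdv2-2 had 6 in 6 cells and Trdv5 had 4 in 4 cells. A 3′ library rarely reaches a variable segment, so most cells have none assigned.

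The depth behind these values was modest. The γδ cells summed to 782434 UMIs in the NO2-OA library, 201918 and 130332 in the HFD + L-NAME libraries, against 370296 and 240236 in the chow libraries. The platelet markers Pf4 and Ppbp were found in 15.2% of γδ cells of the NO2-OA library, in 60% and 64.3% of those from the HFD + L-NAME pair, against 78.7% and 60.7% in the chow libraries. In the NO2-OA library a single γδ cell held 6055 of 6302 haemoglobin UMIs. Lyz2 UMIs were found in 9.53% of cells with at least 2 Cd3 UMIs in the NO2-OA library, in 21.2% and 50.9% of such cells of the HFD + L-NAME libraries, and in 23.5% and 33.9% of those of chow libraries, so the Lyz2 condition removed unequal shares. Each pair of libraries shared 25 to 68 barcode sequences among those kept, and 0 of these were γδ cells in both libraries. Between HFD + L-NAME library 1 and the NO2-OA library, 2 γδ barcodes matched kept barcodes outside the γδ gate of the other library. By their file names the libraries form 2 sets, replicate 1 with NO2-OA and replicate 2.

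The first question was how γδ cells differ from the other cytotoxic and helper lymphocytes of the same blood. UMIs were summed per library and gate and tested with edgeR's quasi-likelihood test with library as a block (Benjamini-Hochberg adjustment at 0.05), against 4394 CD8-gated, 3300 CD4-gated and 381 NK-gated cells. Against the CD8 gate, 362 of 8419 genes (4.3%) were higher and 320 (3.8%) lower in γδ cells, 8.1% in all. The CD4 gate gave 486 of 7677 genes (6.33%) higher and 391 (5.09%) lower, 11.4% in all. The NK gate gave 615 of 4773 genes (12.9%) higher and 629 (13.2%) lower, 26.1% in all. The number of calls moved with the number of cells and with the NO2-OA library: without that library 398 were called against the CD8 gate and 572 against the CD4 gate, and with equal numbers of cells in both sums 304 and 404. Each log2 fold change below is γδ over the named gate with its SE (n = 5 libraries).

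Receptor genes that the gates did not use differed with the gates. Trac stood at 49.8, 34.7, 23.0, 18.9 and 25.0 CPM in γδ cells, against 208, 201, 202, 126 and 227 CPM in the CD8 gate. It was lower in γδ cells in all 5 libraries (log2 fold change −2.62 ± 0.19, adjusted p = 9.87e-12 by edgeR). In comparison with the CD4 gate the log2 fold change was −3.14 ± 0.18, adjusted p = 1.67e-11 by edgeR. Trbc2 was lower by less, at −0.43 ± 0.10, adjusted p = 0.00386 against the CD8 gate, and higher than in the NK gate (1.73 ± 0.17, adjusted p = 3.19e-08). Themis, which tunes receptor signalling during thymic selection, was lower than in the CD8 gate (−0.83 ± 0.09, adjusted p = 5.70e-08) and far higher than in the NK gate (7.18 ± 0.27, adjusted p = 1.09e-14).

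The γδ cells carried type 1 genes above the levels of both αβ gates and below those of NK cells. The CD8 gate was not split into naive and memory cells, and its Ccl5-positive cells were not compared alone. Whether the differences hold against memory CD8 cells was therefore not tested. Of the 22 genes listed for the type 1 and cytotoxic program, 20 passed the filter on low counts against the CD8 gate, and 12 were higher and 0 lower in γδ cells. The median log2 fold change of these 20 was 1.06, against −0.01 over all 8419 genes. Of those tested with the CD4 gate, 14 of 16 tested were higher and 0 lower (median 3.33, against −0.01 over all genes), and against the NK gate 2 of 18 were higher and 16 lower (median −1.40, against 0.00 over all genes). Of all genes tested, 4.3%, 6.33% and 12.9% were higher against the CD8, CD4 and NK gates. In the same order 3.8%, 5.09% and 13.2% were lower.

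Ccl5, a chemokine stored by memory killer cells, stood at 3853, 3046, 1465, 2655 and 3455 CPM in γδ cells, against 1336, 1081, 915, 385 and 956 CPM in the CD8 gate. Every γδ value lay above every CD8 value, but the test did not pass (log2 fold change 1.57 ± 0.34, adjusted p = 0.0857 by edgeR). It passed with DESeq2 (1.56, adjusted p = 9.87e-05) and in edgeR without the first chow library (1.28, adjusted p = 6.19e-06). With the CD4 gate it passed (3.96 ± 0.44, adjusted p = 0.00799). NK-gated cells had more, at 7517, 7228, 8001, 5196 and 9786 CPM (log2 fold change −1.25 ± 0.17, adjusted p = 7.61e-05). Without the first HFD + L-NAME library the adjusted p against the NK gate was 0.0514 by edgeR. Xcl1, a chemokine that attracts cross-presenting dendritic cells, had 81.8, 114, 161, 99.9 and 66.6 CPM in γδ cells, against 12.8, 10.1, 15.1, 10.1 and 7.78 CPM in the CD8 gate (3.04 ± 0.22, adjusted p = 1.05e-11). All 5 γδ values lay above all CD8 values.

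Transcription factors and cytokines followed. Tbx21, the type 1 master regulator, had 83.1, 64.4, 115, 99.9 and 91.6 CPM in γδ cells, against 39.7, 22.5, 37.9, 21.5 and 19.4 CPM in the CD8 gate, with no overlap (1.57 ± 0.21, adjusted p = 1.82e-06 by edgeR). Ifng, interferon-γ, had 72.8, 54.5, 169, 154 and 70.8 CPM, against 17.5, 21.0, 26.2, 10.8 and 11.1 CPM in the CD8 gate (2.49 ± 0.27, adjusted p = 1.01e-06). Il2rb, the receptor chain shared by interleukin-2 and interleukin-15, was higher than in the CD8 gate (1.03 ± 0.12, adjusted p = 1.85e-07) and than in the CD4 gate (2.22 ± 0.19, adjusted p = 5.58e-07). Eomes, a related factor of memory and NK cells, was higher than in the CD4 gate (4.84 ± 0.40, adjusted p = 4.47e-09) and lower than in the NK gate (−2.80 ± 0.20, adjusted p = 1.58e-10).

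Granule genes of killer cells were also lower than in the NK gate. Gzma, a granzyme, had 11.5, 4.95, 0, 27.0 and 0 CPM in γδ cells, against 4899, 4037, 4771, 3261 and 5716 CPM in the NK gate (−8.45 ± 0.31, adjusted p = 7.22e-11 by edgeR). CD8-gated cells had 0 to 24.8 CPM, a range that overlaps with that of γδ cells, and Gzma was not called between them. Gzmb, another granzyme, and Prf1, the pore-forming perforin, were lower than in the NK gate, at −6.86 ± 0.29 and −3.86 ± 0.26 on the log2 scale. Prf1 was higher than in the CD4 gate (1.27 ± 0.37, adjusted p = 0.0256 by edgeR), a call not made by DESeq2 (0.121) or without the library block (0.0979); without the first chow, the first HFD + L-NAME or the NO2-OA library it fell under the filter on low counts. Nkg7, a granule membrane protein, ran from 287 to 491 CPM in γδ cells, above the CD8 gate (0.60 ± 0.13, adjusted p = 0.00158) and the CD4 gate (3.39 ± 0.16, adjusted p = 4.75e-13) and below the NK gate (−1.96 ± 0.14, adjusted p = 9.92e-11).

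NK receptors were unequal in γδ cells. Klrc2, an activating lectin receptor that pairs with the Klrd1 chain, had 158, 114, 84.4, 122 and 129 CPM in γδ cells, against 27.4, 16.4, 27.9, 14.0 and 13.3 CPM in the CD8 gate (2.62 ± 0.20, adjusted p = 3.15e-11 by edgeR). Klrd1 itself had 250.5, 223, 176, 197 and 296 CPM in γδ cells, against 198, 219, 205, 170.2 and 208 CPM in the CD8 gate. These ranges overlapped and Klrd1 was not called, while in comparison with the CD4 gate it was higher (3.27 ± 0.16, adjusted p = 1.05e-12). Klra8, the Ly49 receptor for a cytomegalovirus protein, had 5.40 CPM in the first chow library and 0 elsewhere, against 734, 1374, 848, 975 and 1309 CPM in the NK gate. Klra genes have near-identical neighbours, and Klrc1 and Klrc2 also share sequence, so single members are uncertain.

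The signalling adaptors of NK receptors lay between the gates. Fcer1g had 40.9, 79.2, 61.4, 43.2 and 79.1 CPM in γδ cells, against 1236, 1231, 1152, 977 and 1307 CPM in the NK gate (−4.25 ± 0.18, adjusted p = 3.76e-14 by edgeR) and 6.65, 11.6, 6.13, 19.9 and 7.20 CPM in the CD8 gate (2.41 ± 0.30, adjusted p = 5.94e-07). Tyrobp, the other adaptor, was lower than in the NK gate (−5.33 ± 0.24, adjusted p = 8.14e-14) and higher than in the CD8 gate (2.16 ± 0.43, adjusted p = 7.87e-04). Both are also expressed by myeloid cells. The summed level of 6 monocyte markers was 124 to 153 CPM in γδ cells, against 76.5 to 110.9 CPM in the CD8 gate, with Lyz2 and Fcgr1 at 0 in γδ cells; its part in the adaptor levels was not tested.

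**Figure D1:**
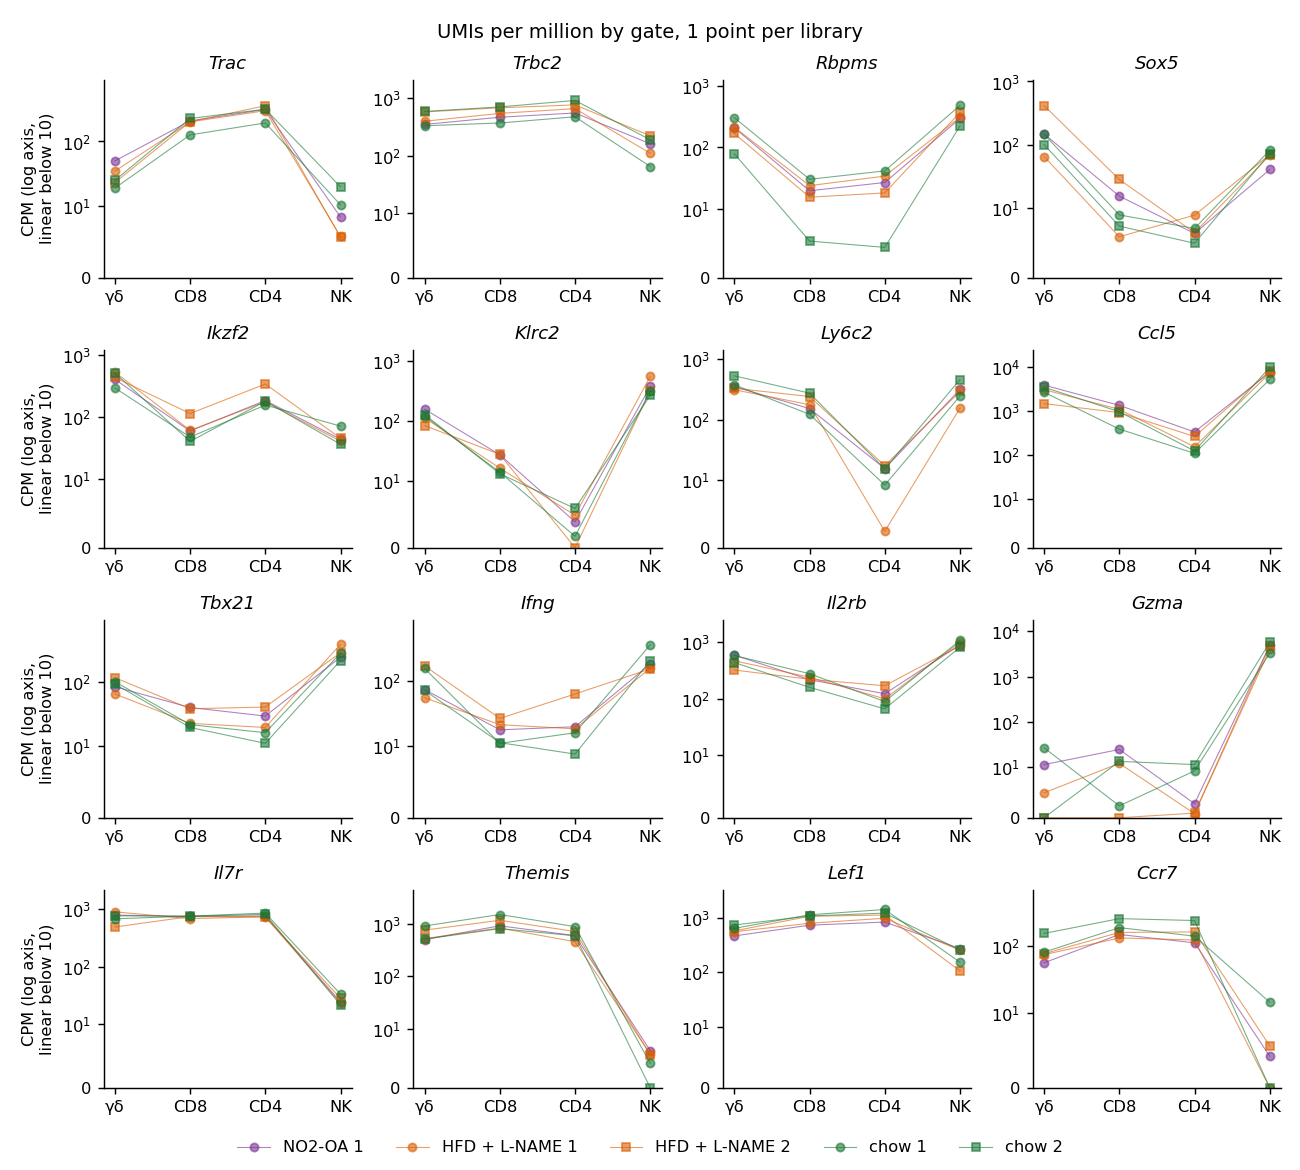
Levels of 16 genes in CPM (log axis, linear below 10) in γδ, CD8, CD4 and NK-gated cells, 1 point per library, with lines joining the gates of a library. Rbpms, Sox5 and Ikzf2 are high in γδ cells against both αβ gates, and Gzma is high in NK cells alone, at 3261 to 5716 CPM.

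Naive and recirculation genes ran the other way, again with the CD8 gate taken whole. Of 12 listed, 11 were tested against the CD8 gate, with 1 higher and 7 lower in γδ cells (median log2 fold change −0.51, against −0.01 over all genes). With the CD4 gate 1 of 12 was higher and 7 lower (median −0.66), and against the NK gate 7 of 9 were higher and 0 lower (median 1.62). Beside these, 4.3%, 6.33% and 12.9% of all genes were higher against the CD8, CD4 and NK gates. The shares lower were 3.8%, 5.09% and 13.2%. Lef1, a factor of naive T cells, had 465, 555, 575, 640.0 and 737 CPM in γδ cells, against 731, 793, 1066, 1133 and 1079.7 CPM in the CD8 gate (−0.80 ± 0.09, adjusted p = 1.96e-07 by edgeR), and was lower in each of the 5 libraries. Ccr7, the lymph node homing receptor, was lower too (−1.19 ± 0.15, adjusted p = 1.23e-06). Igfbp4, a binding protein of insulin-like growth factors and a marker of naive T cells, was lower than in the CD8 gate (−2.79 ± 0.30, adjusted p = 1.02e-07) and than in the CD4 gate (−3.90 ± 0.25, adjusted p = 7.50e-11).

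Genes that report receptor signal strength passed in part. Over all genes 4.3%, 6.33% and 12.9% were higher against the CD8, CD4 and NK gates, and 3.8%, 5.09% and 13.2% lower. Against the CD8 gate 5 of 12 were higher and 0 lower (median 0.40, against −0.01 over all genes). Against the CD4 gate 4 of 11 were higher and 1 lower, and against the NK gate 4 of 9 were higher and 2 lower. Ikzf2, the factor Helios, had 400.0, 525, 429.7, 292 and 508 CPM in γδ cells, against 58.9, 60.4, 113, 47.0 and 40.1 CPM in the CD8 gate, with no overlap (2.73 ± 0.17, adjusted p = 2.02e-10 by edgeR). Cd69, an early activation antigen that holds cells in tissue, was higher than in each of the 3 gates (0.42 ± 0.09, adjusted p = 0.00154 against CD8, 1.11 ± 0.11, adjusted p = 1.07e-07 against CD4 and 2.41 ± 0.16, adjusted p = 3.89e-11 against NK). Cd5, an inhibitory receptor that scales with αβ receptor signal, was lower than in the CD4 gate (−1.79 ± 0.18, adjusted p = 1.58e-07). The other 3 calls against the CD8 gate, the receptor-induced factors Nr4a1, Nr4a3 and Nfatc1, were smaller, at 0.52 ± 0.16, 0.41 ± 0.11 and 0.48 ± 0.15. Each was lost without the NO2-OA library (adjusted p 0.230, 0.230 and 0.348 by edgeR); each was also lost without the first chow library (0.0536, 0.0916 and 0.150), those of Nr4a3 and Nfatc1 without the second (0.0773 and 0.0892), those of Nr4a1 and Nfatc1 on leaving out HFD + L-NAME library 1 (0.106 and 0.0824), and that of Nr4a1 on leaving out library 2 of that group (0.0948).

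By smallest p, the genes that most set γδ cells apart from CD8 cells were Rbpms and Sox5. Rbpms, an RNA-binding protein, had 208, 213, 169, 305 and 79.1 CPM in γδ cells, against 19.8, 24.1, 15.6, 30.4 and 5.33 CPM in the CD8 gate (3.27 ± 0.17, adjusted p = 1.27e-15 by edgeR). The γδ values lay above all CD8 values, with the second chow library lowest in both gates. NK-gated cells had more (−0.65 ± 0.16, adjusted p = 0.00435). Sox5, a transcription factor of the same subfamily as Sox13, had 147, 64.4, 414, 146 and 99.9 CPM in γδ cells, against 15.2, 5.82, 27.9, 8.95 and 7.35 CPM in the CD8 gate (3.56 ± 0.19, adjusted p = 5.01e-15) and 40.1, 69.0, 67.4, 81.1 and 71.9 CPM in the NK gate (1.39 ± 0.27, adjusted p = 3.91e-04). In γδ cells the second HFD + L-NAME library was highest and the first was lowest.

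The rest of the 10 higher and 10 lower genes that the naming rule took against the CD8 gate can be given by range. The higher ones were Klrc2, Ikzf2, Il2rb, Ell2 (a transcription elongation factor), S100a6 (a calcium-binding protein), Cobll1, Rgs2 (a brake on G-protein signalling) and Ern1 (a sensor of unfolded protein), with log2 fold changes from 1.03 to 2.73. S100a6 had 314, 267, 169, 94.5 and 549 CPM in γδ cells, against 116, 68.9, 94.8, 27.7 and 94.8 CPM in the CD8 gate (1.65 ± 0.17, adjusted p = 4.51e-08 by edgeR); with Trac-positive cells left out its adjusted p was 0.25. The lower ones were Fam241a, Kif1b (a kinesin motor), Rapgef4 (an exchange factor for Rap1), Npc2 (a lysosomal cholesterol carrier), Rps19 (a ribosomal protein), Fas (a death receptor), Themis, Als2cl, Cmah (a sialic acid hydroxylase) and Igfbp4. Their log2 fold changes ran from −3.54 in Als2cl to −0.79 in Rps19.

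The higher genes by the rule against the CD4 gate were Nkg7, Klrd1, Setbp1, Chst11 (a chondroitin sulfotransferase), Rbpms, Ctsw (a protease of killer cells), Sox5, Pde7a (a cyclic AMP phosphodiesterase), Dusp2 (a phosphatase of MAP kinases) and Pakap. Their log2 fold changes ran from 1.57 to 4.36. The lower genes were Ifi27l2a (interferon-inducible), Ctla4 (an inhibitory receptor of regulatory and activated T cells), Igfbp4, St8sia6 (a sialyltransferase), Trib2, Hif1a (the hypoxia factor), Ndrg3, Nxpe3, Tmem64 and Hspbap1. Ctla4 stood at 38.3, 29.7, 38.4, 10.8 and 12.5 CPM in γδ cells, against 273, 225, 266, 146 and 255 CPM in the CD4 gate (−3.18 ± 0.20, adjusted p = 6.95e-11 by edgeR). The CD4 gate holds regulatory T cells too, and their factor Foxp3 stood at up to 30.2 CPM there. Hif1a was lower in γδ cells by a log2 value of −1.56 ± 0.13, adjusted p = 5.33e-09.

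Higher genes against the NK gate included Themis, Il7r, Fam169b, Gramd3, Sntb1, Dpp4 (a surface peptidase), Zeb1 and Bcl11b (transcription factors of T cells) and Fam241a. Il7r, the interleukin-7 receptor chain that naive and memory T cells need for survival, had 791, 901, 491, 683 and 770.1 CPM in γδ cells, against 24.3, 23.0, 28.1, 33.3 and 21.6 CPM in the NK gate (4.95 ± 0.20, adjusted p = 1.37e-14 by edgeR), and did not pass against the CD8 gate (−0.15 ± 0.11, adjusted p = 0.536). The lower genes were Klra8, Klra9, Klra4, Klrb1b and Klre1 (NK receptors), Fcer1g, Tyrobp, Gzmb, Irf8 (a transcription factor of myeloid and NK cells) and Arsb (a lysosomal sulfatase). Klra4 was at 0 in γδ cells of all 5 libraries, against 526, 604, 534, 682 and 1163 CPM in the NK gate.

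Other gene groups differed in fewer members. Over all genes, 4.3% were higher and 3.8% lower against the CD8 gate. These shares were 6.33% and 5.09% against the CD4 gate and 12.9% and 13.2% against the NK gate. Of homing receptors, 3 of 11 were higher and 0 lower against the CD8 gate, among them Cxcr4, the receptor that retains cells in marrow (0.91 ± 0.14, adjusted p = 1.65e-05 by edgeR), and 0 of 9 were higher and 6 lower against the NK gate. S1pr5, the receptor by which NK cells leave the marrow, had no UMI in γδ cells, against 48.6, 80.5, 45.0, 45.7 and 59.3 CPM in the NK gate. Ccr9, a gut-homing chemokine receptor, was higher than in the CD4 gate (1.59 ± 0.29, adjusted p = 4.52e-04). Activation and checkpoint genes had 2 higher and 2 lower of 6 against the CD8 gate, with Cd44 and Tnfrsf18 higher and Ctla4 and Batf lower, and 0 higher and 4 lower of 7 against the CD4 gate. The calls of Itgal, an integrin, and Tnfrsf18, a co-stimulator, against the CD8 gate were lost without either chow library or the NO2-OA library (adjusted p from 0.0839 to 0.353 by edgeR), that of Itgal also without the second HFD + L-NAME library (0.0539), and that of Batf without the NO2-OA library (0.109).

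Of the 23 listed type 17 genes most were too low to test in whole gates. Over all genes 8.1%, 11.4% and 26.1% were called in either direction against the CD8, CD4 and NK gates. Against the CD8 gate 2 of 7 were higher, Rora and Maf, factors of type 17 cells, and 0 lower (median 0.38). With the CD4 gate, Il18r1 and Cxcr6, an interleukin-18 and a chemokine receptor, were higher and Icos, a co-stimulator, and Maf lower, of 6 tested (median −0.28). Against the NK gate 3 of 6 were higher and 2 lower (median 0.02). Maf had 53.7, 49.5, 38.4, 29.7 and 58.3 CPM in γδ cells, against 12.2, 10.9, 7.25, 18.3 and 5.91 CPM in the CD8 gate (1.95 ± 0.31, adjusted p = 3.30e-05 by edgeR) and 139, 98.4, 247, 89.2 and 83.8 CPM in the CD4 gate (−1.40 ± 0.21, adjusted p = 3.10e-05). S100 genes had 3 of 6 higher against the CD8 gate and 0 of 6 called against the CD4 gate.

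Immediate-early genes had 3 of 16 higher against the CD8 gate, 7 of 16 against the CD4 gate and 5 of 16 against the NK gate, with 0, 0 and 1 lower; over all genes 4.3%, 6.33% and 12.9% were higher. Of heat-shock chaperones 0 of 11 were called against the CD8 and CD4 gates and 3 of 11 were called against the NK gate, where 26.1% of all genes were. Interferon-stimulated genes had 1 higher and 3 lower of 38 against the CD8 gate, 0 higher and 6 lower of 36 against the CD4 gate, and 5 higher and 1 lower of 15 against the NK gate, beside 8.1%, 11.4% and 26.1% of all genes called in either direction. Of 18 lipid and glucose genes tested against the CD8 gate, 0 were higher and 1 was lower. Clock genes had 2 higher and 0 lower of 11 against the CD8 gate, Rora and Bhlhe40.

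**Figure D2:**
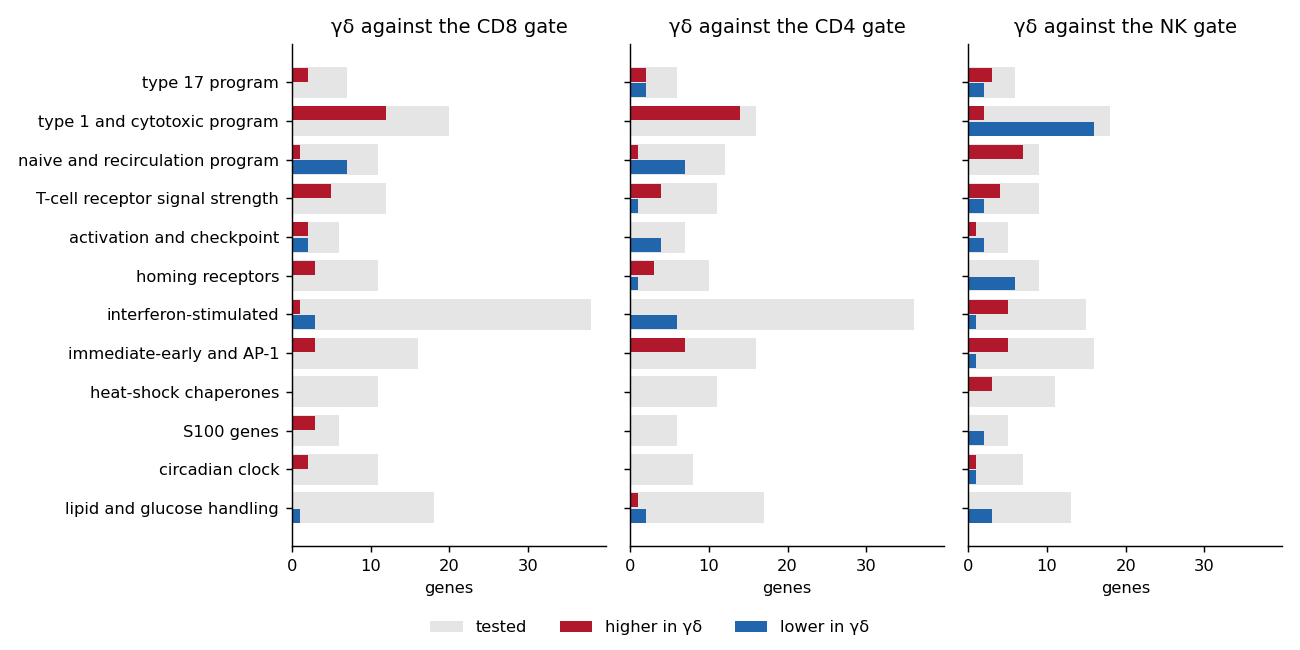
Numbers of genes tested (grey), higher in γδ cells (red) and lower in γδ cells (blue) by edgeR at an adjusted p of 0.05, for 12 gene lists against the CD8, CD4 and NK gates. Type 1 and cytotoxic genes are higher against both αβ gates (12 of 20 and 14 of 16) and lower against the NK gate (16 of 18). Of all genes, 8.1%, 11.4% and 26.1% were called in either direction against the CD8, CD4 and NK gates.

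Within the gate, Ccl5 marked most cells. Ccl5 was detected in 73 of 99 cells of the NO2-OA library, 16 of 25 and 8 of 14 in the HFD + L-NAME libraries, against 36 of 47 and 19 of 28 in the chow libraries. Of the B-gated cells, 1.42% held a Ccl5 UMI. Ly6c2, a surface antigen of type 1 γδ cells, was found in 84.9% of the Ccl5-positive cells of the NO2-OA library, in 81.2% and 50% of those from the HFD + L-NAME pair, against 86.1% and 78.9% in the chow libraries. In cells without Ccl5 the shares were 11.5%, 22.2% and 16.7%, and 18.2% and 11.1%, in the same order of libraries. In each library the share was higher in the cells with Ccl5, while the cells without Ccl5 were shallower, with library medians from 5397 to 7900 UMIs, against 7246.5 to 10189 UMIs in the cells with Ccl5. Ly6c2 has a near-identical neighbour, Ly6c1, so its counts are uncertain. The split was made on measured values and has no test.

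A small set of cells carried type 17 genes. The 9 genes Il17a, Il17f, Il23r, Il1r1, Scart1, Scart2, Sox13, Blk and Ccr6 were counted per cell, and a cell with at least 2 of them is called a type 17 cell here, a definition chosen after the values were seen. There were 9 such cells, 7 of 99 in the NO2-OA library, 0 of 25 and 0 of 14 in the HFD + L-NAME libraries, against 0 of 47 and 2 of 28 in the chow libraries. All 9 cells held 4 to 6 of the genes. No cell held 2 or 3, so the set stood apart from the other 204 cells. A count of 0 allows a share of up to 12% and 21.4% in each HFD + L-NAME library in turn, against 6.38% in the first chow library (3 cells of the total).

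Among the genes of the definition, Il17a, the cytokine interleukin-17A, had 84 UMIs in 6 cells, all in the NO2-OA library. Il23r, the interleukin-23 receptor, had 85 UMIs in 8 cells, and Blk, a kinase of the type 17 lineage, had 34 UMIs in 8 cells. None of these 3 genes had a UMI in the other 204 cells, which the definition partly sets. Genes outside the definition differed too, as a description with no test. S100a6 stood at 2579 CPM in the 9 cells, against 194 CPM in the other cells, and S100a4, its neighbour in the same family, at 1383 CPM against 19.9 CPM. Il7r was at 1398 CPM, against 730 CPM, and Cd44, an adhesion receptor of memory cells, at 870.2 CPM, against 329 CPM. Ccl5 and Tbx21 had no UMI in the 9 cells, against 3392 and 91.5 CPM, and Ly6c2 had 15.5 CPM, against 388 CPM. All 9 held Maf. Trac was found in 2 of the 9, and Trgv6 in 2. With cells thinned to 3000 UMIs the shares were 7.29% of 96 cells in the NO2-OA library, 0% and 0% in the HFD + L-NAME libraries, against 0% and 7.14% in the chow libraries. Among T-gated cells outside the γδ gate, type 17 cells were 0.434% in the NO2-OA library, 0.284% and 0.528% in the HFD + L-NAME libraries, against 0.309% and 0.342% in the chow libraries.

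Type 17 cells were found in the HFD + L-NAME libraries once cells with Lyz2 UMIs were let in. With that condition dropped, type 17 cells numbered 7 of 112 (6.25%) in the NO2-OA library, 4 of 40 (10%) and 3 of 33 (9.09%) in the HFD + L-NAME libraries, against 1 of 68 (1.47%) and 2 of 47 (4.26%) in the chow libraries. The 7 HFD + L-NAME cells held 1 or 2 Lyz2 UMIs each. All 4 in the first HFD + L-NAME library held 5 or more of the 9 genes. In the second 1 of 3 did, and the 1 cell that entered in the first chow library did not. Trac was found in 2 of the 8 type 17 cells that entered. Exact 95% binomial intervals were 2.55% to 12.5% in the NO2-OA library, 2.79% to 23.7% and 1.92% to 24.3% in the HFD + L-NAME libraries, against 0.0372% to 7.92% and 0.520% to 14.5% in the chow libraries, so all overlapped; they cover counting error only. Il17a UMIs were then also found in 2 cells of the first HFD + L-NAME library, 8 UMIs in all. Of cells just outside the gate on another condition, 1 of the 172 that lacked only Trdc was a type 17 cell, and it held Trac. So were 3 of the 140 that lacked only a γ constant gene, all 3 with 5 or more of the 9 genes. Of the 31 that failed only on Cd79a, 6 held at least 2 of the 9 genes, but only 2 of them held 5 or more. Trac was found in 3 of these 6, and the part of B-cell transcripts in their counts was not tested.

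**Figure D3:**
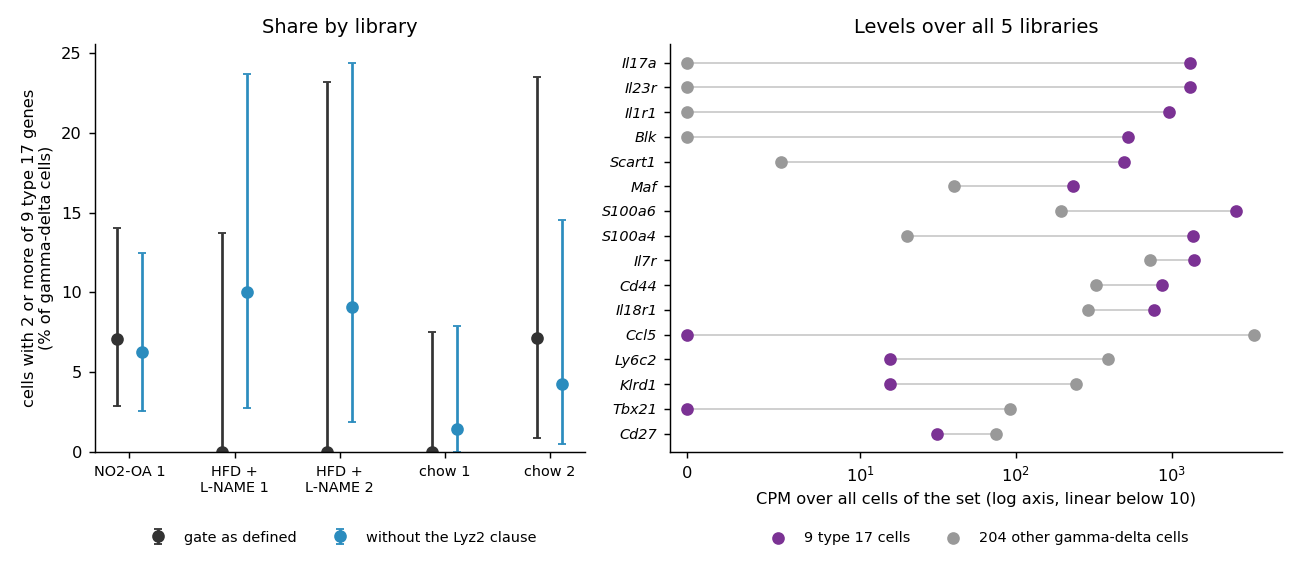
Left, share of γδ cells with at least 2 of 9 type 17 genes per library, with exact 95% binomial intervals, for the gate as defined (dark) and without the Lyz2 condition (blue). Right, levels in CPM (log axis, linear below 10) over the 9 type 17 cells (purple) and the 204 other γδ cells (grey); HFD + L-NAME libraries go to 10% and 9.09% when Lyz2-positive cells are let in.

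The share of γδ cells among all kept cells was highest in the NO2-OA library. It was 0.684% there (exact 95% binomial interval 0.556% to 0.832%), 0.210% and 0.182% in the HFD + L-NAME libraries, against 0.272% and 0.262% in the chow libraries. The NO2-OA value lay 0.488 percentage points above the HFD + L-NAME mean, a ratio of 3.49, and with 1 library it has no test. The HFD + L-NAME libraries averaged 0.196% ± 0.020 and the chow libraries 0.267% ± 0.007 (SD, n = 2 each). That difference of −0.071 percentage points had an exact two-sided permutation p of 0.33, the smallest that 2 against 2 libraries can give; within replicates 1 and 2 it was −0.063 and −0.080. Without the Lyz2 condition the shares were 0.773%, then 0.336% and 0.429%, then 0.394% and 0.440%, and the HFD + L-NAME and chow ranges overlapped. With cells thinned to 3000 UMIs the shares were 0.397%, 0.141% and 0.206%, and 0.105% and 0.160%, and the difference turned to 0.041.

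Among T-gated cells the NO2-OA library no longer stood out. γδ cells were 2.10% of T-gated cells there, 1.17% and 3.56% in the HFD + L-NAME libraries, against 1.10% and 1.57% in the chow libraries. The second HFD + L-NAME library, with 393 T-gated cells, was the highest. The HFD + L-NAME mean lay 1.03 percentage points above the chow mean (exact two-sided permutation p = 0.667), and 0.066 and 1.99 within replicates 1 and 2.

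**Figure D4:**
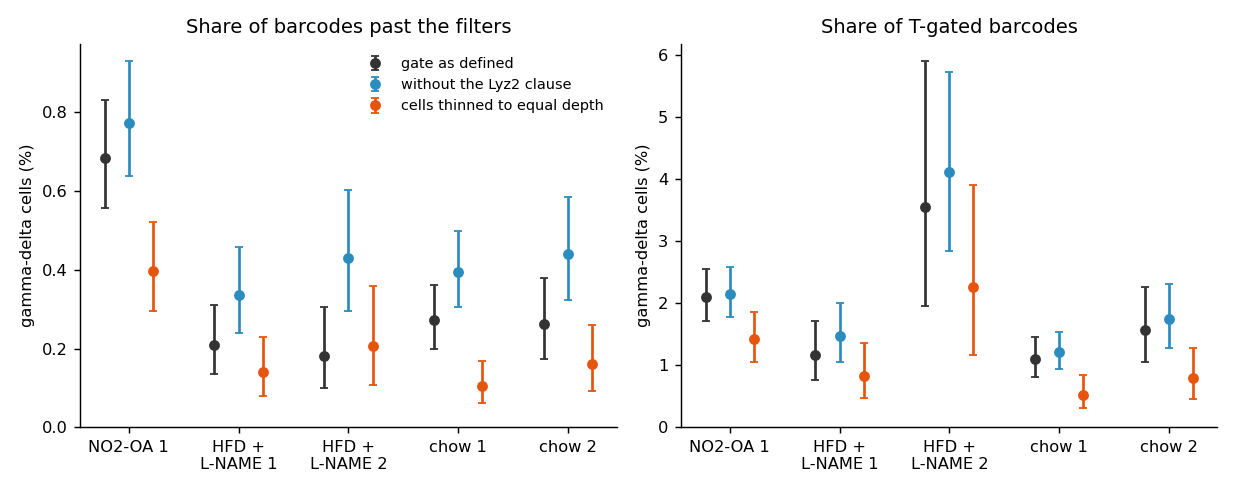
Share of γδ cells in percent per library, of all kept barcodes (left) and of T-gated barcodes (right), with exact 95% binomial intervals, for the gate as defined, without the Lyz2 condition and with cells thinned to equal depth. The NO2-OA library is highest on the left under all 3 settings (0.684%, 0.773% and 0.397%) and lies inside the range of the HFD + L-NAME libraries on the right.

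Setting HFD + L-NAME against chow asked how the regimen changes γδ cells. Of 5232 genes tested with edgeR in 1 fit of all 5 libraries, 5 were called (0.0956%), 2 higher (0.0382%) and 3 lower (0.0573%), and 193 had an unadjusted p under 0.05. Klrk1, the activating receptor NKG2D that binds stress ligands, had 154 and 76.7 CPM in the HFD + L-NAME libraries, against 246 and 716 CPM in the chow libraries. The groups did not overlap, and the log2 fold change was −1.93 ± 0.39, adjusted p = 0.00278 by edgeR. The second chow library was the highest, and without it the value was −0.95 with an adjusted p of 0.991. Klrk1 was detected in 9 of 25 and 3 of 14 HFD + L-NAME cells, against 21 of 47 and 12 of 28 chow cells, and in 48 of 99 NO2-OA cells.

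St6galnac3, a sialyltransferase, had 129 and 99.7 CPM in the HFD + L-NAME libraries, against 229.5 and 583 CPM in the chow libraries (−1.73 ± 0.40, adjusted p = 0.0184 by edgeR). Its groups did not overlap either, and without the second chow library the value was −0.90 with an adjusted p of 0.991. Nebl, an actin-binding protein of the nebulin family, had no UMI in either HFD + L-NAME library, against 37.8 and 62.4 CPM in the chow libraries. Against the limit of 3 UMIs over both HFD + L-NAME libraries it was at least 5.26-fold lower (adjusted p = 0.026 by edgeR). The calls of Klrk1, St6galnac3 and Nebl were each lost on leaving out the second chow or the second HFD + L-NAME library (adjusted p from 0.478 to 0.991 by edgeR), and those of St6galnac3 and Nebl also on leaving out HFD + L-NAME library 1 (0.302 and 0.473). Without the NO2-OA library, that is with the 4 HFD + L-NAME and chow libraries alone, 0 genes were called. Only 3 of the 5 regimen calls passed the filter on low counts there. The others, Nebl and the haemoglobin chain Hbb-bt described below, became testable only with the NO2-OA library in the fit. Their regimen p-values are therefore not read as tests. DESeq2 on all 5 libraries called 0.

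The 2 higher genes were haemoglobin chains. Hbb-bs had 119 and 246 CPM in the HFD + L-NAME libraries, against 48.6 and 12.5 CPM in the chow libraries (2.48 ± 0.44, adjusted p = 9.30e-05 by edgeR) and Hbb-bt had 14.9 and 76.7 CPM in the HFD + L-NAME libraries, against 2.70 and 0 CPM in the chow libraries (adjusted p = 0.00868), a ratio of summed UMIs of 23.9 with an exact 95% counting interval of 3.59 to 1015.2. Both chains have near-identical copies. Summed haemoglobin UMIs of the CD8 gate, without cells of over 100 such UMIs, were 178 and 300.2 CPM in the HFD + L-NAME libraries, against 73.4 and 32.6 CPM in the chow libraries, so the same order was seen outside γδ cells; the part of free red-cell RNA was not tested. Both calls were lost without the second chow library (adjusted p 0.448 and 0.478 by edgeR), without the second HFD + L-NAME library (0.522 and 1.00) and without the NO2-OA library, and that of Hbb-bt also without the first chow library (0.0734). Without the Lyz2 condition both fold changes turned, to −3.92 and −3.93; a single chow cell with 5383 haemoglobin UMIs entered there.

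Few of the listed genes were called for the regimen. Klrk1 was the 1 call among 16 tested type 1 genes (median log2 fold change −0.23, against 0.00 over all genes). Ccl5 had 3046 and 1465 CPM in the HFD + L-NAME libraries, against 2655 and 3455 CPM in the chow libraries (−0.36 ± 0.30, adjusted p = 0.999 by edgeR), with overlapping groups. Ly6c2 had 312 and 329.9 CPM in the HFD + L-NAME libraries, against 375 and 529 CPM in the chow libraries; these did not overlap, and the test did not pass (−0.43 ± 0.36, adjusted p = 0.999). Of 12 type 17, 10 naive, 11 receptor-signal, 9 homing, 25 interferon-stimulated, 16 immediate-early and 11 chaperone genes tested, 0 were called. In simulated data this fit found 38.1% of 4-fold changes, so 0 calls do not show that these genes were unchanged. Of these, 6 type 17, 2 receptor-signal, 2 homing and 8 interferon-stimulated genes passed the filter on low counts only with the NO2-OA library in the fit, and Il17a had no UMI in any of the 4 HFD + L-NAME and chow libraries, so it could not be called. Hspa1a, a stress-induced chaperone, had 141 CPM in the NO2-OA library, 1000.4 and 729 CPM in the HFD + L-NAME libraries and 799 and 4.16 CPM in the chow libraries, and the second chow library stood apart; reads of Hspa1a and Hspa1b are hard to tell apart.

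The comparison of NO2-OA with HFD + L-NAME asked what nitro-oleic acid adds to the regimen. It sets 1 library against 2, so the spread of the NO2-OA group is assumed to be that of the others, and both comparisons share the HFD + L-NAME libraries. Of 5232 genes, 11 were called (0.21%), 8 higher (0.153%) and 3 lower (0.0573%), and 130 had an unadjusted p under 0.05. Il17a had 107 CPM in the NO2-OA library, against 0 and 0 CPM in the HFD + L-NAME libraries. Il23r had 97.1 CPM in the NO2-OA library, against 0 and 0 CPM in the HFD + L-NAME libraries. Against the limit of 3 UMIs over both HFD + L-NAME libraries, Il17a was at least 11.9-fold higher and Il23r at least 10.8-fold higher. Both were among the 8 higher genes called, but each passed the filter on low counts only through the NO2-OA library. These 2 calls are therefore not read as tests.

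Both calls came from the 7 type 17 cells of the NO2-OA library and were lost without the Lyz2 condition. All 76 Il23r UMIs and all 84 Il17a UMIs of that library lay in these cells. Without the Lyz2 condition the log2 fold changes were −0.06 for Il23r, with an adjusted p of 1, and 2.75 for Il17a, with an adjusted p of 0.244 (edgeR). Without the first HFD + L-NAME library the adjusted p of each was 0.087. Both genes, and Il1r1, passed the filter on low counts only with the NO2-OA library, the one in which they are high, in the fit. Their p-values rest on cells of 1 library, and a fit with no filter uses the same cells, so neither is read as a test of these genes. Il1r1, the interleukin-1 receptor, had 78.0 CPM in the NO2-OA library, against 0 and 0 CPM in the HFD + L-NAME libraries, and did not pass. It passed without the first or the second chow library and with no filter on low counts, again from cells of 1 library.

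Nebl had 65.2 CPM in the NO2-OA library, against 0 and 0 CPM in the HFD + L-NAME libraries, at least 7.22-fold higher. It was among the higher genes called, but it passed the filter on low counts only with the NO2-OA library in the fit. The Nebl call is therefore not read as a test either. Micu2, a regulator of mitochondrial calcium uptake, had 74.1 CPM in the NO2-OA library, against 0 and 7.67 CPM in the HFD + L-NAME libraries (adjusted p = 0.0158), a ratio of summed UMIs of 24.6 with an exact 95% counting interval of 4.25 to 989.4. In the chow libraries Nebl stood at 37.8 and 62.4 CPM and Micu2 at 67.5 and 29.1 CPM, below the NO2-OA values. Without the first HFD + L-NAME library the adjusted p was 0.236 for Nebl and 0.702 for Micu2; without the second it was 0.0746 for Nebl, and without the first chow library 0.0708 for Micu2. Without the Lyz2 condition the Nebl value was −0.51.

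The other 7 calls were red-cell and platelet genes. Hbb-bs, Hba-a1, Hba-a2 and Hbb-bt were higher in the NO2-OA library by 4.22 to 5.11 on the log2 scale. With the single cell of 6055 haemoglobin UMIs left out, these were 0.15, −0.32, 0.31 and −0.45, and none passed. Pf4, a platelet chemokine, had 15.3 CPM in the NO2-OA library, against 99.1 and 138 CPM in the HFD + L-NAME libraries (−2.95 ± 0.64, adjusted p = 0.00285 by edgeR), and Gng11 and Cd9, also abundant in platelets, were lower, at −2.72 ± 0.65 and −2.17 ± 0.55. In the CD8 gate Pf4 stood at 9.97 CPM in the NO2-OA library, against 93.5 and 65.8 CPM in the HFD + L-NAME libraries. The summed level of 6 platelet markers in γδ cells was 55.0 CPM there, against 228 and 253 CPM; its part in these calls was not tested. The calls of Pf4 and Gng11 were lost without the second HFD + L-NAME library (adjusted p 0.0913 and 0.0963), and those of Gng11 and Cd9 without the first (0.127 and 0.812).

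**Figure D5:**
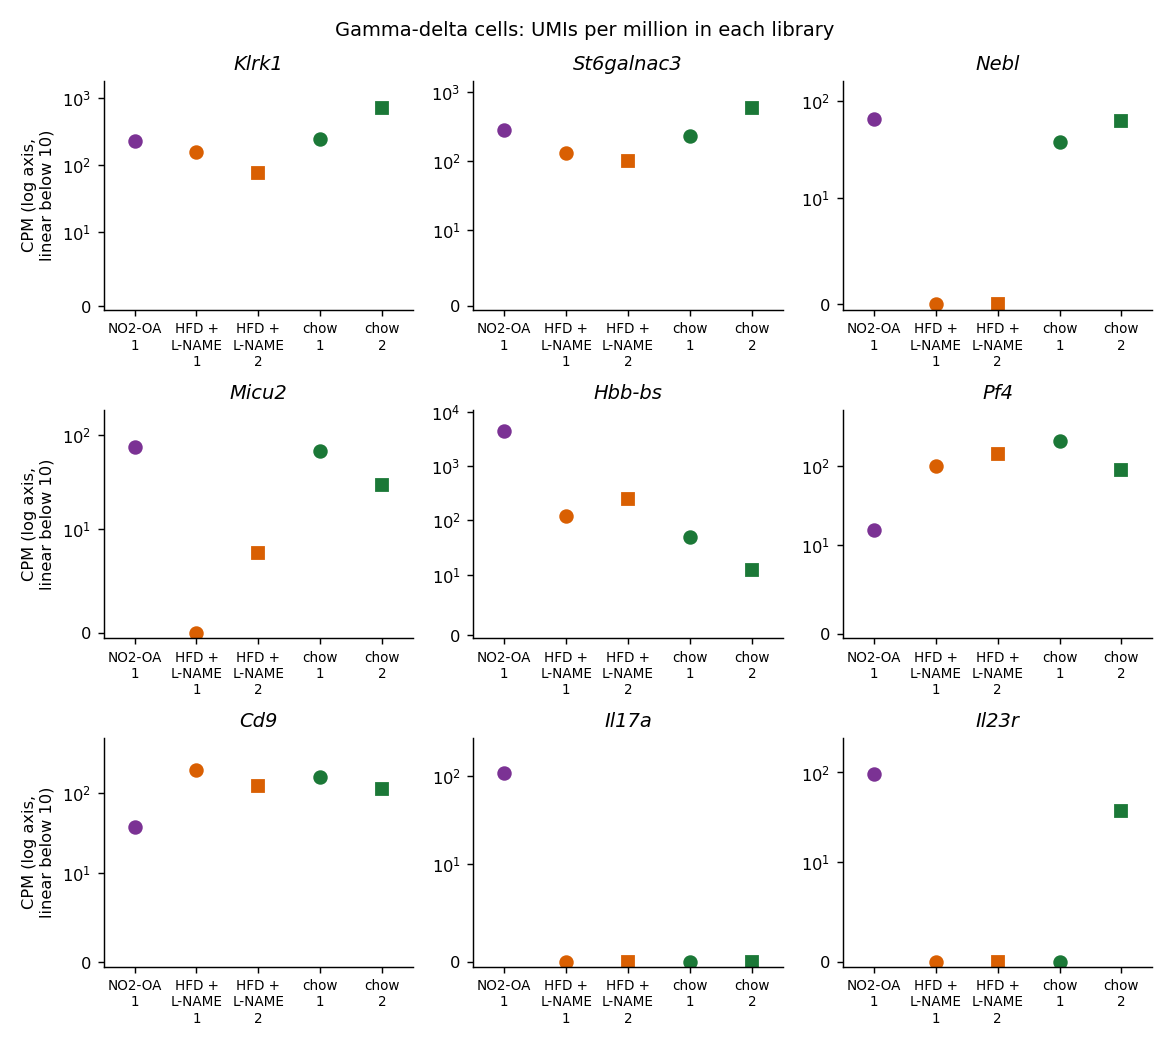
Levels of 9 genes in γδ cells in CPM (log axis, linear below 10), 1 point per library, for the NO2-OA, HFD + L-NAME and chow libraries. Klrk1 is low in both HFD + L-NAME libraries (154 and 76.7 CPM), Nebl is at 0 in both, and Il17a is above 0 in the NO2-OA library alone.

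With the Lyz2 condition dropped, the condition comparisons called other genes. None of the 5 regimen calls and none of the 11 NO2-OA calls was among them. For the regimen 6 genes were then higher and 1 lower. Il1r1 had 95.7 and 61.2 CPM in the HFD + L-NAME libraries, against 0 and 2.34 CPM in the chow libraries (adjusted p = 2.81e-08 by edgeR), a ratio of summed UMIs of 80.0 with an exact 95% counting interval of 13.7 to 3222.9. Scart1 had 89.5 and 116 CPM in the HFD + L-NAME libraries, against 3.36 and 23.4 CPM in the chow libraries (log2 fold change 3.07, adjusted p = 3.16e-04). With the gate as defined, Il1r1 had 0 CPM in both HFD + L-NAME libraries. Its UMIs there thus came with the Lyz2-positive cells, among them 4 and 3 type 17 cells. Both genes belong to the definition of those cells, and the condition was dropped after the data were seen. These 2 p-values are therefore not read as tests of the regimen. Tmem176a and Tmem176b, membrane proteins of type 17 cells and of myeloid cells, were also higher, with Plcb4 and Atrnl1, and H2-Aa, a class II chain, was lower. For NO2-OA 17 genes were called, among them Lyz2, Cybb, Tyrobp and Vcan, genes of myeloid cells, all higher. Of the 13 cells that entered in that library, 6 held over 10 Lyz2 UMIs and the highest held 333.

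The last comparison split γδ cells by γ constant gene, cells with Trgc4 and no Trgc1 against cells with Trgc1 and no Trgc4. Only the NO2-OA library, with 30 against 34 cells, and the first chow library, with 21 against 13, had at least 10 cells on each side. Of the cells with Trgc4, 10 of 30 and 6 of 21 also held Trgc2, which is hard to tell from Trgc1. Of 3577 genes tested with edgeR and library as a block, 0 were called (0%), 98 had an unadjusted p under 0.05, and DESeq2 called 0 with 12 under 0.05. Hdac9, a histone deacetylase, had the smallest p (log2 fold change 3.73 ± 0.48, adjusted p = 0.396), higher with Trgc4. It passed under 4 alternatives, with an adjusted p of 0.0431 with DESeq2 size factors, 8.26e-07 with no filter on low counts, 0.00308 with no library block and 8.30e-06 with Trgc2 counted with Trgc1, that is for 20 against 48 cells and 15 against 21 cells (log2 fold change 2.46). The other genes with small p values were Slamf6, Tmed10, Inpp4b, Themis and Swt1, higher with Trgc4, and Lyst, Vwa8, Klrk1, Mir155hg, Ccdc174 and Mcm6, lower with Trgc4, each with an adjusted p of 0.998. The log2 fold change was −1.12 ± 0.28 for Klrk1 and 0.79 ± 0.21 for Themis. A split by Scart1 could not be tested, because no library had at least 10 cells on each side.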

How the data were processed

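Single-cell RNA libraries of peripheral blood mononuclear cells (isolated on Ficoll, red cells lysed, frozen and thawed, 10x 3′ chemistry) were deposited as whole-number UMI counts per gene and barcode. Per the file headers the authors made them with Cell Ranger 7.1.0, and per the submitters' processing notes with bcl2fastq and the mm39 genome; the annotation release is not given in the sources used here. No normalization had been applied to the deposited counts. Deposited barcodes numbered 8488 to 17997 per library.

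The members and lists were chosen with earlier results of these data known. Gates used raw counts: the CD8 gate needed Cd8b1 and the CD4 gate Cd4, each with at least 2 Cd3 UMIs and no Trdc, Cd79a, Lyz2 or Ncr1, and the NK gate Ncr1 without Cd3. Genes used by a gate were not counted among its calls. Counts were summed per library and gate, filtered with filterByExpr, scaled by TMM and tested with edgeR 4.0.16 (R 4.3.3; quasi-likelihood, robust; Benjamini-Hochberg at 0.05), with group as the term between conditions and library as a block between gates. SE is the log2 fold change divided by the root of F. DESeq2 1.42.0 was an alternative. Shares were compared with exact permutation tests and carry exact Clopper-Pearson 95% intervals, which like the limit of 3 UMIs cover counting error only. Doublets were not removed; an alternative left out the highest scrublet scores (scanpy 1.11.5). The scripts were tested on simulated data with 1 fixed spread between libraries. The regimen fit recovered 2.13% of 2-fold and 38.1% of 4-fold changes there, and the chain comparison 3.33% and 40.9%. Most 4-fold changes were also missed for NO2-OA. Named genes were, per comparison, up to 10 higher and 10 lower by smallest p that passed, had a mean of at least 5 log2 CPM and moved the same way in every library, with list members beside them; gene models without a symbol, receptor segments and mitochondrial genes were passed over, and some genes are not reported here. Sequences were read from GENCODE transcripts on GRCm38, a build other than that of the counts, and matched by gene name. The files write Trgc1, Trgc2, Trgc4 and Scart1; older names are Tcrg-C1, Tcrg-C2, Tcrg-C4 and Cd163l1. Alternatives on Pf4 or Ppbp, haemoglobin, Lyz2, cell number, type 17 cells and Trgc2 were chosen after seeing the data.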

Additional observations from a re-analysis of the deposited data

How the results depend on the processing

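The comparisons with other gates kept their directions. Over all alternatives, 0 of the values for 54, 46 and 47 named genes against the CD8, CD4 and NK gates were reversed, and 103 of 1065, 11 of 894 and 24 of 899 fell short of a threshold that the reported value passed. The 682 calls against the CD8 gate numbered 320 without cells with Pf4 or Ppbp UMIs, 304 with equal numbers of cells, 411 with cells thinned, 287 without the library block, and 398 to 796 with 1 library left out. Against the CD4 gate, 877 became 398, 404, 540 and 580 in the same order, 1343 with no filter on low counts, and 572 to 1026 with 1 library left out. Against the NK gate, 1244 became 506 without Pf4 or Ppbp cells, 722 with cells thinned, and 935 to 1306 with 1 library left out. The regimen count of 5 was 0 with Trac-positive cells left out, without Pf4 or Ppbp cells, with DESeq2 and with 4 libraries alone, 1 with at least 2 Trdc UMIs or without type 17 cells, 3 with no filter, and 0 to 21 with 1 library left out. The NO2-OA count of 11 was 7 with Trac-positive cells left out, 6 with at least 2 Trdc UMIs, 17 without the Lyz2 condition, 4 without Pf4 or Ppbp cells, 6 without haemoglobin-rich cells, 5 without type 17 cells, 3 with DESeq2, and 10 to 18 with 1 library left out. With the Lyz2 condition dropped, the log2 fold changes turned to −3.92 (Hbb-bs), −3.93 (Hbb-bt) and 1.20 (Nebl) for the regimen and to −0.062 (Il23r), −0.35 (Il1r1, not passing) and −0.51 (Nebl) for NO2-OA. Ccl5 for the regimen, which did not pass, ran from −1.04 to 0.10 with 1 library left out. Without haemoglobin-rich cells the values for NO2-OA turned to −0.32 (Hba-a1) and −0.45 (Hbb-bt). The chain comparison had 1 call with DESeq2 size factors, with no filter, without the library block and with Trgc2 counted with Trgc1. The HFD + L-NAME minus chow share of kept cells, −0.071 percentage points, was −0.091 with mitochondrial share under 5%, −0.046 with at least 500 genes, −0.053 with at least 2 Trdc UMIs, −0.035 without the Lyz2 condition and 0.041 with cells thinned, and the NO2-OA minus HFD + L-NAME share 0.223 with cells thinned. Among T-gated cells the NO2-OA minus HFD + L-NAME share ran from −1.46 to 0.932 with 1 library left out. Causes were not tested, except that fewer cells enter some sums by construction. With the replicate number as a block, 7 genes were called for the regimen and 13 for NO2-OA, 4 and 9 of them shared with the unblocked fits (Hspa1a, Hspa1b and Ifi209 were added for the regimen, at 2.22, 2.22 and 1.89, and Hspa1a, Hspa1b, S100a4 and Nrgn for NO2-OA, at −4.04, −4.20, 4.59 and −2.39; St6galnac3 was lost for the regimen and Il17a and Micu2 for NO2-OA, at adjusted p of 0.0880, 0.0535 and 0.0871), and within replicates 1 and 2 the share differences were −0.063 and −0.080 of kept cells and 0.066 and 1.99 of T-gated cells. Same-numbered libraries had deviations correlated at 0.058 over 5232 genes, and with 2 pairs the numbers were not taken to pair libraries. The split by Scart1 was not run, since no library had enough cells on both sides. The HFD + L-NAME sums hold 25 and 14 cells.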
